A study of Drosophila melanogaster with 12 samples.

Results

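The comparison described here set RNA polymerase II (Pol II) peaks of Drosophila cells depleted of AGO2 (siAGO2) against those of mock-treated cells. Its members were the 2 siAGO2 and the 2 mock immunoprecipitation (IP) libraries, taken by the sample titles from 6 IP libraries and 12 samples in all. All libraries came from Kc167, an established female line of embryonic origin that the study treats as hemocyte cells, and all were precipitated with 8WG16, an antibody against the hypophosphorylated C-terminal domain of Pol II. The siAGO2 cells were nucleofected with 100 pmol of siRNA against AGO2, whereas the mock cells went through nucleofection without any RNA. Depletion of AGO2 and delivery of an RNA can therefore not be told apart in this design, and the line is a single genetic background with no AGO2 mutation. The paired input libraries were not analysed here, and the labels do not say whether replicates were separate cultures, so p-values measure the spread between these libraries only.

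Pol II is recruited to promoters, initiates with an unphosphorylated tail, and in Drosophila often pauses just downstream of the transcription start site (TSS) under the hold of NELF and DSIF until P-TEFb releases it. The 8WG16 antibody favours the initiating and paused form, so peaks sit mainly over start sites. AGO2 is the Argonaute protein that carries siRNAs for cytoplasmic RNA interference and is also found on chromatin at active promoters. The comparison asks where Pol II occupancy ranked differently, and where its peaks had another shape, once AGO2 was depleted.

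The labelled cell type was set beside marker genes. Of 20 hemocyte markers, 12 and 13 had a TSS in a peak of the siAGO2 libraries and 14 and 14 in the mock libraries. Over all 13968 protein-coding genes these counts were 3835 and 5030 in siAGO2, against 6116 and 5619 in mock. The neuron list had 3 and 3 of 14 in siAGO2 against 4 and 4 in mock, the muscle list 3 and 4 of 14 against 4 and 4, and the germline list 1 of 11 in each library. Of the hemocyte list, He, NimC1, PPO1, PPO2, Sr-CI and gcm2 had no peak over a TSS in any of the 4 libraries, so defining markers of the label were partly absent.

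The start regions of 6 genes are printed because their sites have the widest gaps between the groups. They are the first 6 by gap among the 5 leading sites of each direction, after leaving out sites with TSSs of several genes and that of Dlip3. Each window holds the 80 bases before the TSS and the 30 bases from the TSS on, from the dm6 assembly and 5′ to 3′ on the gene's strand. CG14196 (chrX:19241811-19241920, minus strand) and CG5399 (chr3R:15695161-15695270, plus strand) are genes without an assigned role here. The protein of mtd (chr3R:5297487-5297596, minus strand) carries a TLDc domain, and drd (chrX:15125673-15125782, plus strand) encodes a membrane acyltransferase-like protein. These 4 ranked higher in siAGO2. The other two ranked lower: ine (chr2L:4476993-4477102, minus strand), a neurotransmitter transporter family member, and slow (chr3L:4384362-4384471, plus strand), a secreted protein of muscle attachment. Capitals mark matches to the TATA box core TATAAA and the initiator core TCAGT, searched on the sense strand. They also mark the E-box CAGCTG, the GAGA factor core GAGAG and the DREF core TATCGATA, searched on both strands.
CG14196: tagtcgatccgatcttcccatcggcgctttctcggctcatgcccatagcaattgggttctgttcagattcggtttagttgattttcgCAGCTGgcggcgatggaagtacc
CG5399: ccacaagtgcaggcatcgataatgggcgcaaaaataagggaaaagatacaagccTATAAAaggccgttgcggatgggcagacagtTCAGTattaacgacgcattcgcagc
mtd: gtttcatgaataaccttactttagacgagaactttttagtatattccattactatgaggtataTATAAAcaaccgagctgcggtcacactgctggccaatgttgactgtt
drd: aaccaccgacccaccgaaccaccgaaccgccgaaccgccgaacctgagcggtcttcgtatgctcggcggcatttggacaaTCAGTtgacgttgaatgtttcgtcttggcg
ine: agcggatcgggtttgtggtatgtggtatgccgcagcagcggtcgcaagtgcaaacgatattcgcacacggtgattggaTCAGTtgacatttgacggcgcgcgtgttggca
slow: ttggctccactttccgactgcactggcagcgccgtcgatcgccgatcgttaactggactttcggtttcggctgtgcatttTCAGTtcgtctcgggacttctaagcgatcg
The CG5399 window held TATAAA from −26 relative to the TSS, and the mtd window held it from −17. TCAGT began at −2 in ine, at 0 in both drd and slow, and at 5 in CG5399, so it occurred on either side of the comparison. CG14196 held CAGCTG from 7 and neither core motif.

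Motif shares were given over shared sites with the TSS of 1 protein-coding gene, of which 354 ranked higher, 507 ranked lower and 2275 were shared in all. TATAAA was in 8.19% of promoters ranked higher and 6.51% of those ranked lower, beside 6.37% of all shared and 13.1% of 19630 protein-coding TSSs. TCAGT was in 35.9% of those ranked higher and 29.8% of those ranked lower, beside 30.8% of all shared and 25.3% of all TSSs. GAGAG was in 32.5% and 26.4%, beside 27.3% and 15.6%. TATCGATA was in 5.65% and 7.89%, beside 8.04% and 5.75%. CAGCTG was in 7.63% and 13.2%, beside 10.3% and 9.58%. These shares are descriptions of letters in a window and were not tested.

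Peaks of the 4 libraries merged into 6277 sites wherever they shared a base. Of these, 3862 had a peak in every library and are called shared. Each shared site was placed within each library by the −log10 q of its best peak, as a percentile in which 0 is the top and 100 the bottom, and a rank difference is the siAGO2 mean minus the mock mean, so that a negative value is nearer the top in siAGO2. The placement of shared sites was alike in all libraries, and the 2 siAGO2 libraries differed from each other about as much as from mock. The median distance between placements was 7.91 points between siAGO2 replicates 1 and 2 and 6.08 between the mock replicates. Between groups it was 8.27 and 8.86 for siAGO2 replicate 1 and 7.17 and 7.07 for siAGO2 replicate 2, each against mock 1 and mock 2.

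A shared site was called when both siAGO2 placements lay on the same side of both mock placements. By that rule 729 sites ranked higher in siAGO2 (18.9% of shared sites) and 737 ranked lower (19.1%). With a distance of at least 10 points between the nearest siAGO2 and mock placements, 140 ranked higher and 137 lower. No test over the libraries is attached to these calls, since a permutation of 2 against 2 libraries cannot go below an exact p of 0.333. By the same count, interchangeable libraries would have a site called, higher or lower, with a probability of 0.333. The part of such calls in these numbers was not tested. In a bulk ChIP fewer cells with Pol II at a site and less Pol II per cell cannot be told apart.

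The largest separations upward were at mtd and CG14196. The mtd site (chr3R:5297257-5297569) stood at 45.8 and 48.2 in siAGO2, against 91.5 and 88.6 in mock. Its peaks were 297 and 270 bp wide in siAGO2 and 232 and 189 bp in mock, with fold enrichments of 4.76 and 7.90 in siAGO2 and 4.04 and 4.20 in mock. Over all peaks the median fold enrichment was 4.46 and 5.71 in siAGO2 and 5.58 and 5.15 in mock. Of the dsLaminB libraries, which share these mock controls, replicate 1 had no peak there and replicate 2 placed it 2117 of 4124.

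The CG14196 site (chrX:19241489-19242005) stood at 54.5 and 49.5 in siAGO2, against 98.7 and 94.0 in mock. Neither dsLaminB library had a peak there. The drd site (chrX:15125639-15125936) stood at 48.6 and 49.0 in siAGO2, against 92.5 and 86.0 in mock. The CG5399 site (chr3R:15695106-15695439) stood at 61.9 and 57.7 in siAGO2, against 94.7 and 99.6 in mock. Among the shared sites all of these lay near the bottom in both mock libraries and near the middle in both siAGO2 libraries. In the whole mock lists, which run on past the shared sites, mtd was ranked 3914 of 5965 and 3785 of 5601. The peaks of mtd, drd and CG5399 were at most 334 bp wide in every library.

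The remaining site of the leading group held the promoters of Nelf-E, a subunit of the NELF pausing complex, and RpL14, a ribosomal protein (chr3L:8600327-8604064). It stood at 39.8 and 48.4 in siAGO2, against 83.7 and 81.3 in mock. Its best peak covered 290 and 1057 bp in siAGO2, against 3451 and 2379 bp in mock. The −log10 q of a broad MACS2 peak is an average over its length, so a wide peak also averages its flanks, and placement and width moved together at this site. Fold enrichment there was 5.04 and 7.64 in siAGO2, against 5.12 and 4.44 in mock.

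Downward, ine had the largest separation. Its site (chr2L:4476782-4477208) stood at 90.7 and 79.7 in siAGO2, against 35.3 and 43.6 in mock. Fold enrichment was 3.45 and 5.46 in siAGO2, against 11.6 and 7.88 in mock. The slow site (chr3L:4384325-4384627) stood at 51.4 and 47.1 in siAGO2, against 18.3 and 21.3 in mock. Its width was 278 and 256 bp in siAGO2, against 303 and 295 bp in mock, while its fold enrichment was 4.95 and 8.08 in siAGO2 and 15.4 and 11.8 in mock.

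The shared start region of CG12877 and CROT, a peroxisomal carnitine acyltransferase (chr3R:27705918-27707476), stood at 89.3 and 96.6 in siAGO2, against 51.6 and 61.0 in mock. Dlip3, a Dorsal-interacting DNA-binding protein (chr2R:18128374-18128739), stood at 85.4 and 94.8 in siAGO2, against 50.0 and 59.0 in mock. Rfk, riboflavin kinase (chr3R:7912766-7913346), stood at 86.6 and 80.9 in siAGO2, against 54.8 and 56.0 in mock. For each of these 5 sites ranked lower, the fold enrichment of both siAGO2 libraries was below that of both mock libraries. Fold enrichment comes from the same peaks as the −log10 q that chose the sites. Among the 5 leading sites ranked higher, it was above mock in both siAGO2 libraries at mtd, CG14196 and drd. It overlapped at the Nelf-E and RpL14 site and at CG5399, where it was 4.84 and 6.59 in siAGO2, against 4.99 and 2.73 in mock.

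**Figure D1:**
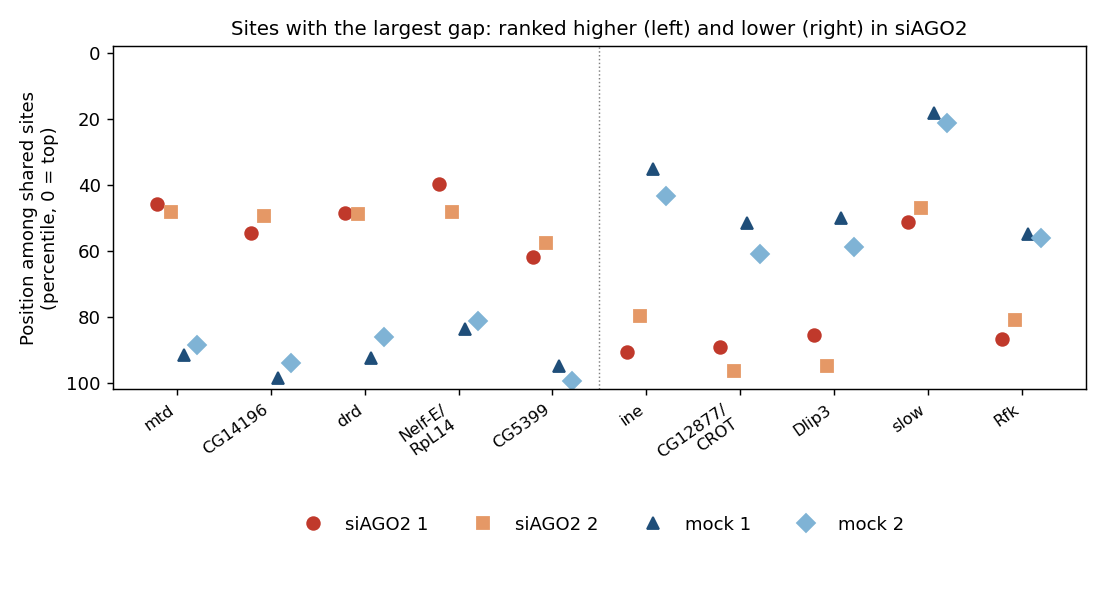
Percentile position of each library (y axis, 0 at the top of the shared sites) for the 5 sites with the largest gap in each direction (x axis, named by their protein-coding genes); each symbol is 1 library. The mtd site lies at 45.8 and 48.2 in siAGO2 and at 91.5 and 88.6 in mock, and ine lies at 90.7 and 79.7 in siAGO2 and at 35.3 and 43.6 in mock.

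Of the loci chosen for display in the study, vri separated most, with a gap of 25.1 points. The study displayed vri and betaTub60D with NELF-E and CDK9 signal, and among these loci only Socs36E with Pol II signal. The vri promoter (chr2L:5305547-5305922), start of a bZIP repressor of the circadian clock, stood at 41.3 and 36.5 in siAGO2, against 76.8 and 66.3 in mock. Peak widths there were 320 and 327 bp in siAGO2, against 369 and 367 bp in mock. The dsLaminB libraries ranked it 2231 of 2531 and 1980 of 4124.

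The Traf4 promoter (chr2L:4371771-4372429), start of a TNF receptor adaptor, stood at 21.6 and 12.8 in siAGO2 and at 25.0 and 11.8 in mock. The Socs36E promoter (chr2L:18151611-18152563), start of a JAK-STAT inhibitor, stood at 9.0 and 1.7 in siAGO2 and at 13.2 and 1.7 in mock. The cv-2 promoter (chr2R:21378917-21379685), start of a BMP-binding protein, stood at 9.2 and 5.6 in siAGO2 and at 4.3 and 21.1 in mock. The groups overlapped at these 3 promoters. At betaTub60D (chr2R:24305656-24306443), a beta tubulin induced by ecdysone in Kc cells, siAGO2 replicate 2 stood at 0.2 and replicate 1 at 6.6, against 7.6 and 8.4 in mock, a separation of 1.0 point.

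The promoter of AGO2 itself (chr3L:15554037-15554551) stood at 64.8 and 43.1 in siAGO2, against 39.0 and 74.5 in mock, and the groups overlapped. An siRNA acts on the transcript, so Pol II over this promoter is no check of the knockdown.

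Equal-length lists, each held to its top 4089 peaks, gave a small set of sites present in one group alone. Of 6277 sites, 73 were gained (a peak in both siAGO2 lists and neither mock list, 1.16%) and 86 were lost (the reverse, 1.37%). Of the 73 gained sites, 66 still had a peak further down both whole mock lists, 4 had one in a single mock list and 3 in neither. Of the 86 lost sites, 70 still had a peak in the whole list of siAGO2 replicate 2 and 16 had none in either siAGO2 list. The length of 4089 is the whole list of siAGO2 replicate 1. By the rule a lost site therefore had no peak there and could remain in siAGO2 replicate 2 only. A gained site could remain in both mock lists, so these counts are not alike between gained and lost.

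CG14196 and CG5399 led the gained sites. Ugt302K1, a UDP-glycosyltransferase gene (chr3R:11153612-11153882), was ranked 1963 and 2559 in siAGO2 and had no peak in either mock list. Cyp6a13, a cytochrome P450 gene (chr2R:8570416-8570694), was ranked 2421 and 2579 in siAGO2, against 4637 and 4380 in mock. The site of vtd, the cohesin subunit Rad21 (chr3L:27135141-27137116), was ranked 2454 and 2629 in siAGO2, against 4263 and 4400 in mock. At vtd the best peak was 248 and 258 bp wide in siAGO2 and 1976 and 1602 bp in mock, whereas at Cyp6a13 it was 210 and 279 bp in siAGO2, against 234 and 222 bp in mock.

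The lost sites were led by CG42741 (chr2R:23042693-23043081), ranked 2560 and 2029 in mock with no peak in either siAGO2 list. The metro site (chr2R:11232287-11232571), of a membrane-associated guanylate kinase, also had no peak in siAGO2 and was ranked 2449 and 2813 in mock. Desat1, an acyl-CoA desaturase (chr3R:12441230-12441634), had no peak in siAGO2 replicate 1 and rank 4169 in replicate 2, against 2742 and 2475 in mock. CG6329 and CG11050 had ranks of 4418 and 4467 in siAGO2 replicate 2 and, like every lost site, no peak in siAGO2 replicate 1. Lost sites held TSSs of esc (Polycomb group), TH1 (a NELF subunit, at a site with mei-41), Fmr1 (an AGO2-associated translational regulator), sgg (a kinase of the clock) and mRpL30. In siAGO2 replicate 2 these sites still had peaks, at ranks 4605, 4397, 4241, 4373 and 4433 of 5381. Gained sites held TSSs of bsk (the JNK kinase) and of the adjacent insulator genes Ibf1 and Ibf2. Over all 18277 genes, 79 had a TSS in a gained site and 88 in a lost site. The sgg gene has several starts, and its best shared promoter stayed in all 4 lists.

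Peaks were narrower in the siAGO2 lists, most of all in replicate 1. At shared sites the median width was 371.5 and 539.5 bp in siAGO2, against 686.5 and 575.5 bp in mock. The group means were 455.5 ± 118.8 bp in siAGO2, against 631 ± 78.5 bp in mock (SD, n = 2 each), a difference of −175.5 bp (exact permutation test, two-sided p = 0.333, the smallest 2 against 2 can give). Without siAGO2 replicate 1 the difference was −78.5 bp, and without siAGO2 replicate 2 it was −260 bp. The difference exceeded the pooled SD of 100.7 bp. Site by site, 2084 shared sites were narrower in both siAGO2 libraries than in both mock libraries (54.0%) and 20 were wider (0.518%).

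The width difference ran through the whole ranked list in replicate 1. Among the top 500 peaks the median width was 502.5 and 573.5 bp in siAGO2, against 647 and 550.5 bp in mock. Among ranks 2001 to 2500 it was 295.5 and 479 bp in siAGO2, against 656.5 and 588.5 bp in mock. In the equal-length lists 1498 and 749 peaks of siAGO2 were under 300 bp, against 254 and 467 of mock. The deposited lists end at different −log10 q (the 4089th peak was at 1.01 and 4.09 in siAGO2 and at 8.83 and 6.29 in mock). Sequencing depth is unknown, and its part in the widths was not tested.

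**Figure D2:**
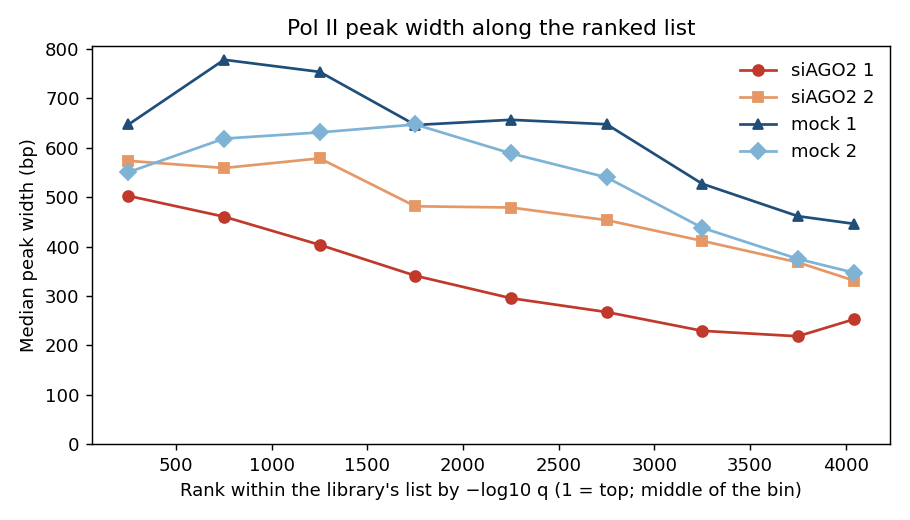
Median peak width in bp (y axis) along the equal-length lists in bins of 500 ranks by −log10 q (x axis, 1 is the top); each line is 1 library. The siAGO2 replicate 1 line runs lowest in every bin, at 295.5 bp for ranks 2001 to 2500, where siAGO2 replicate 2 has 479 bp and the mock libraries 656.5 and 588.5 bp.

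The narrowing was on both sides of the TSS. At 2275 shared sites with the TSS of 1 protein-coding gene, the best peak reached a median of 242 and 308 bp downstream in siAGO2, against 374 and 323 bp in mock (difference −73.5 bp, exact permutation p = 0.333). Upstream it reached 100 and 114 bp in siAGO2, against 143 and 125 bp in mock (difference −27 bp, exact permutation p = 0.333). Without siAGO2 replicate 1 these differences were −36.5 and −14 bp, and without mock replicate 1 the upstream difference was −17.5 bp. The best peak covered the TSS itself at 81.2% and 90.0% of sites in siAGO2, against 98.8% and 95.2% in mock. Peaks that reached over 1000 bp into the gene numbered 14 and 72 in siAGO2 and 88 and 72 in mock.

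**Figure D3:**
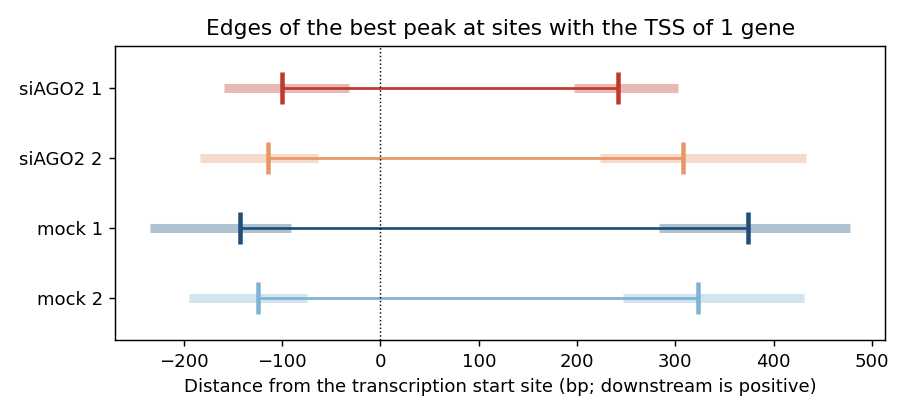
Edges of the best peak around the TSS in bp (x axis, downstream positive) at 2275 sites for each library (rows); ticks are medians and pale bars run between the lower and upper quartiles. Median downstream edges lie at 242 and 308 bp in siAGO2, against 374 and 323 bp in mock.

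Broad domains were described from both sides. At 219 sites both mock libraries had 1 peak of at least 1500 bp. Of these, the best peak had that width at 33 in siAGO2 replicate 1 and at 143 in siAGO2 replicate 2. Mock is at its full count here by the choice of sites, so siAGO2 could only be lower. The site was divided into 2 peaks at 45 sites of siAGO2 replicate 1 and 43 of siAGO2 replicate 2. The median best peak was 909 and 1727 bp in siAGO2, against 1989 and 1920 bp in mock. With the opposite choice, added after seeing the data, 30 sites had 1 peak of at least 1500 bp in both siAGO2 libraries, and at 30 of them both mock libraries had a best peak of that width too. Over the equal-length lists peaks of more than 1500 bp made up 0.905% and 7.04% in siAGO2, against 9.59% and 7.29% in mock, so siAGO2 replicate 2 was close to mock replicate 2.

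The position of peaks relative to genes was close between the groups. In the equal-length lists 97.2% and 97.3% of siAGO2 peaks lay within 1500 bp of a TSS, against 97.6% and 97.6% of mock peaks (difference −0.33 points, pooled SD 0.027 points, exact permutation p = 0.333). The share of covered bases in genes but over 1000 bp from any TSS was 1.95% and 3.95% in siAGO2, against 3.16% and 3.02% in mock (exact permutation p = 1). The 2 siAGO2 libraries thus lay on opposite sides of mock in gene body cover. Without siAGO2 replicate 1 the difference in that share was 1.87 points and without siAGO2 replicate 2 it was −1.14 points.

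Sites that were wide in mock tended to rank nearer the top in siAGO2. In the widest quintile of shared sites (1118.5 to 6841 bp in mock) the median rank difference was −5.49 points in siAGO2 replicate 1 and −1.95 in siAGO2 replicate 2, and 31.6% ranked higher while 12.2% ranked lower. In the next-to-narrowest quintile (418 to 552 bp) it was 3.28 and 2.56, with 9.21% higher and 28.1% lower. In the narrowest quintile (182.5 to 417.5 bp) it was 1.99 in siAGO2 replicate 1 and −0.25 in siAGO2 replicate 2. There 17.7% ranked higher and 21.2% lower, so the rank difference did not change evenly with width. Widths and ranks come from the same peaks, and the part of width in the ranks was not tested. When the count was limited to 912 shared sites whose best peak was at most 500 bp in every library, a limit chosen after seeing the data, 178 ranked higher and 167 lower, and the width difference was −82 bp.

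**Figure D4:**
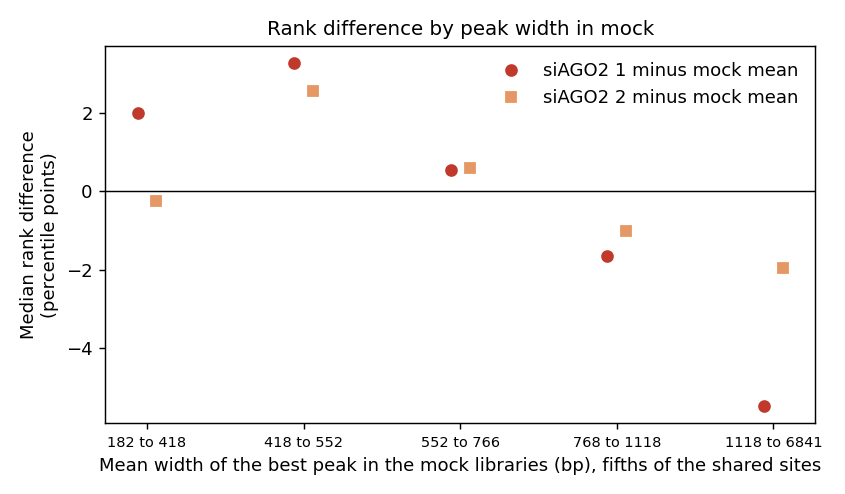
Median rank difference in percentile points (y axis, negative is nearer the top in siAGO2) for each siAGO2 library against the mock mean, over quintiles of the shared sites by their mean width in mock (x axis, bp). In the widest quintile siAGO2 replicate 1 lies at −5.49 and siAGO2 replicate 2 at −1.95.

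Sites with protein-coding TSSs on both strands were more frequent among sites that ranked higher. They made up 36.1% of the sites ranked higher and 23.1% of those ranked lower, beside 29.8% of all shared sites. Orientation and distance of the TSSs were not checked, so these need not be head-to-head gene pairs. The part of site width in these shares was not tested. Sites ranked higher had median widths of 410 and 599 bp in siAGO2, against 931 and 807 bp in mock. For sites ranked lower these were 353 and 510 bp in siAGO2, against 565 and 505 bp in mock. The X chromosome held 16.5% of sites ranked higher and 19.4% of those ranked lower, beside 18.3% of shared sites.

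At the level of genes, 5113 had a TSS in a shared site. Of these, 1056 ranked higher in siAGO2 (20.7%) and 899 ranked lower (17.6%), with a median rank difference of −0.56. When peaks were ranked by fold enrichment, 884 of the 5113 genes were higher and 797 lower. Each gene list below is read against the values of the same ranking, with no test of the list. A placement belongs to a site, and a site can hold TSSs of several genes. For example, RpL27A shared its site with Gs1l, hop with Tim8 and dlg1, put with His4r, and baf with Cka. Hsc70-4 shared it with tefu, Su(Tpl) with Mi-2 and Prp3, Prosbeta4 with CG17996 and Nubp1, and Polr2C with GatC and PolG2. BEAF-32 shared it with Spred, and the Hsp83 site also held CG14965, CG14966, CG32276 and gry.

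Cytosolic ribosomal protein genes ranked higher more often than lower. Of 81 cytosolic ribosomal protein genes with a shared site, 27 ranked higher and 5 lower, with a median rank difference of −5.92. The difference came from replicate 1, at −11.9, while replicate 2 was at 0.66. Ranked by fold enrichment, 21 were higher and 7 lower. Median widths of these sites were 455 and 1100 bp in siAGO2, against 1491 and 1399 bp in mock. Only 1 of the 81 genes had a shared site with best peaks at most 500 bp wide in every library. RpL28, at a site it shares with eIF1 and Larp4B (chr3L:3222472-3226438), stood at 24.4 and 17.1 in siAGO2, against 49.6 and 54.2 in mock, with widths of 1083 and 1131 bp in siAGO2, against 3870 and 3792 bp in mock. RpL27A stood at 19.5 and 32.5 in siAGO2, against 47.5 and 49.4 in mock. RpS23 stood at 30.9 and 42.6 in siAGO2, against 54.0 and 62.7 in mock.

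Small nucleolar RNAs guide rRNA modification and are often encoded in introns of such genes. Of 64 snoRNA genes at 41 shared sites, 24 genes at 17 sites ranked higher and 2 ranked lower, with medians of −16.7 in replicate 1 and −4.73 in replicate 2. Median widths there were 496.5 and 1075 bp in siAGO2, against 1816 and 1216 bp in mock. No snoRNA gene had a shared site with peaks at most 500 bp wide in every library. Ranked by fold enrichment instead, a setting added for the gene lists after seeing the data, 14 snoRNA genes were higher and 3 lower, and their median in replicate 2 was 0.01. Genes of the ncRNA biotype had 71 higher and 21 lower of 231.

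Of 73 mitochondrial ribosomal protein genes, 15 and 39 had a TSS in a peak of the siAGO2 libraries, against 60 and 51 in mock, beside 4012 and 5303 of all 18277 genes in siAGO2, against 6464 and 5901 in mock. Among the 35 with a shared site, 7 ranked higher and 6 lower. Cdk1 and mRpS7 share a start region (chr2L:10385949-10387357) that stood at 76.4 and 71.3 in siAGO2, against 89.8 and 90.8 in mock. Its best peak was 187 and 171 bp wide in siAGO2, against 819 and 1315 bp in mock. The mRpS7 TSS lay in a peak of both mock libraries and of neither siAGO2 library. Proteasome subunit genes had 2 higher and 2 lower of 31. Prosbeta4 stood at 52.4 and 54.3 in siAGO2, against 75.3 and 73.3 in mock.

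Heat shock genes went both ways. Of 16 with a shared site, 4 ranked higher and 7 lower, and the 7 lie at only 3 sites. The Hsp23 and Hsp27 site, of small heat shock proteins (chr3L:9381557-9384973), stood at 14.4 and 12.4 in siAGO2, against 2.8 and 0.1 in mock. The site of Hsp22, Hsp26, Hsp67Bc and CG4456 (chr3L:9372129-9377743) stood at 35.8 and 27.3 in siAGO2, against 24.6 and 14.3 in mock. Hsp68, an inducible Hsp70-family chaperone (chr3R:24054463-24057646), stood at 36.0 and 47.2 in siAGO2, against 27.6 and 19.6 in mock.

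The 4 that ranked higher were Hsc70-4, Hsp83, Hsc70-5 and DnaJ-1. Hsc70-4, the main cytosolic cognate, stood at 38.1 and 46.9 in siAGO2, against 56.8 and 53.9 in mock. Hsp83, the Hsp90 chaperone, stood at 36.0 and 25.5 in siAGO2, against 41.6 and 44.6 in mock. Hsc70-5, the mitochondrial Hsp70, stood at 20.1 and 24.8 in siAGO2, against 31.0 and 37.3 in mock. DnaJ-1, an Hsp40 co-chaperone, stood at 22.4 and 24.5 in siAGO2, against 28.6 and 24.7 in mock. The inducible Hsp70Ba, whose near-identical copies make its reads uncertain, did not separate, at 66.3 and 36.8 in siAGO2 and 54.2 and 61.2 in mock. Ranked by fold enrichment, 4 heat shock genes were higher and 1 was lower.

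Hemocyte genes ranked higher more often than lower, 6 against 3 of 12. SPARC, a collagen-binding matrix protein (chr3R:26871203-26872205), stood at 21.5 and 20.0 in siAGO2, against 41.0 and 35.1 in mock. The collagen IV gene vkg (chr2L:5027117-5027679) stood at 21.1 and 26.8 in siAGO2, against 36.6 and 43.2 in mock. Its neighbour and partner chain Col4a1 (chr2L:5029413-5029873) went the other way, at 16.3 and 20.0 in siAGO2 and 13.2 and 14.4 in mock.

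The lozenge gene lz, a Runx factor of crystal cells, stood at 55.8 and 60.2 in siAGO2, against 68.0 and 82.1 in mock. The FOG protein gene ush stood at 8.4 and 6.8 in siAGO2, against 16.5 and 24.0 in mock. Pxn, the matrix peroxidase peroxidasin, stood lower in siAGO2 at 47.2 and 46.7, against 33.0 and 34.3 in mock. Ppn, the matrix protein papilin, was also lower, at 30.4 and 35.2 in siAGO2 and 24.3 and 17.0 in mock. The hemocyte list had 5 higher and 3 lower of 12 when peaks were ranked by fold enrichment, beside 884 and 797 of all 5113 genes.

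Ecdysone genes had 6 higher and 2 lower of 18, beside 20.7% and 17.6% of all genes with a shared site. The list median was 1.35, toward the bottom, with 2.28 in siAGO2 replicate 1 and −4.60 in siAGO2 replicate 2. Ranked by fold enrichment, 4 were higher and 3 lower. The zinc finger gene crol (chr2L:11806715-11809514) stood at 2.5 and 18.6 in siAGO2, against 45.4 and 42.6 in mock, with widths of 421 and 1586 bp in siAGO2, against 2800 and 2332 bp in mock. The nuclear receptor gene Hr3 (chr2R:10227739-10228095) stood at 46.6 and 25.7 in siAGO2, against 56.2 and 60.5 in mock. EcR, the ecdysone receptor, was separated by 3.5 points, with siAGO2 at 8.5 and 5.6. Eip74EF, an ETS factor, stood at 14.7 and 23.8 in siAGO2, against 27.1 and 37.3 in mock. Cth, a cystathionine lyase gene of the list, was lower, at 35.3 and 26.2 in siAGO2 and 17.9 and 6.9 in mock.

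Growth factor and immediate early genes had 5 higher and none lower of 18. The Ras antagonist sty (chr3L:3417261-3418849) stood at 4.4 and 7.5 in siAGO2, against 18.9 and 34.4 in mock. Ras85D stood at 39.3 and 31.6 in siAGO2, against 49.8 and 51.4 in mock. Mkp3, the ERK phosphatase, stood at 14.1 and 16.9 in siAGO2, against 22.1 and 28.4 in mock. Myc stood at 2.9 and 13.7 in siAGO2, against 14.4 and 17.3 in mock. The median of this list was −1.37, close to that of all genes.

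**Figure D5:**
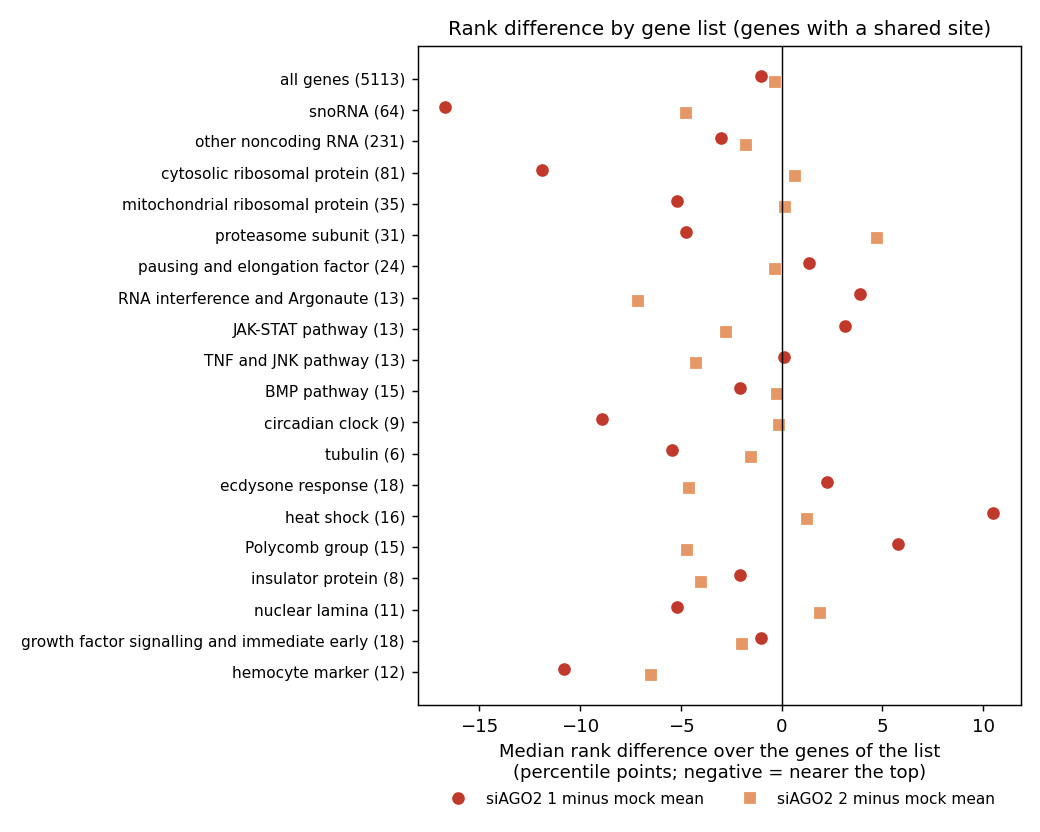
Median rank difference in percentile points (x axis, negative is nearer the top in siAGO2) of each siAGO2 library against the mock mean for the gene lists (rows, with the number of genes that have a shared site). The cytosolic ribosomal protein list lies at −11.9 in siAGO2 replicate 1 and at 0.66 in siAGO2 replicate 2, and the hemocyte list at −10.8 and −6.49.

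Genes of the pausing and elongation machinery had 5 higher and 4 lower of 24. Beside Nelf-E, Su(Tpl), a super elongation complex subunit, stood at 61.7 and 68.5 in siAGO2, against 73.3 and 78.1 in mock. Hexim, an inhibitor of P-TEFb (chr3R:14659346-14659865), was lower, at 69.1 and 78.9 in siAGO2 and 51.5 and 50.3 in mock. Ssrp, a subunit of the FACT histone chaperone, was also lower, at 82.7 and 82.4 in siAGO2 and 62.7 and 69.2 in mock. Of 5 Pol II subunit genes with a shared site, Polr2C was lower, by a gap of 14.0 points, and Polr2A higher, by 0.9 points.

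RNA interference genes had 3 higher and 4 lower of 13. AGO1, the miRNA Argonaute, stood at 25.7 and 30.5 in siAGO2, against 42.1 and 38.9 in mock, at a site it shares with mRpL53 and CG33155. The gene vig, of a RISC-associated protein, stood at 51.4 and 58.2 in siAGO2, against 67.1 and 75.1 in mock. Medians of this list were 3.88 in replicate 1 and −7.13 in replicate 2.

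Signalling lists were mixed. In the JAK-STAT list (3 higher and 3 lower of 13), the kinase gene hop stood at 50.9 and 47.1 in siAGO2, against 61.4 and 58.9 in mock. Its antagonist et (chrX:19675483-19676430) was lower, at 32.8 and 28.7 in siAGO2 and 12.6 and 5.3 in mock. In the TNF and JNK list (3 higher and 3 lower of 13), the JNK kinase kinase gene hep (chrX:13090144-13090449) stood at 62.8 and 64.3 in siAGO2, against 90.0 and 87.9 in mock. The TNF receptor gene wgn stood at 9.0 and 1.8 in siAGO2, against 16.4 and 15.1 in mock. In the BMP list (3 higher and 5 lower of 15), the ligand gene dpp stood at 77.7 and 68.3 in siAGO2, against 91.2 and 79.8 in mock, and the receptor gene put was lower, at 58.9 and 55.4 in siAGO2 and 37.4 and 47.2 in mock.

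The clock list had 2 higher and 2 lower of 9. After vri came CkIIbeta, a casein kinase subunit, at 65.3 and 61.5 in siAGO2, against 81.2 and 78.8 in mock. The activator gene cyc was lower, at 88.5 and 83.4 in siAGO2 and 77.7 and 79.0 in mock. The tubulin list had 3 higher and 1 lower of 6. The gaps were 1.0 to 1.5 points for those ranked higher and 5.6 points for gammaTub23C, which ranked lower. Ranked by fold enrichment, 0 were higher and 1 was lower.

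Chromatin lists held a few large separations. In the Polycomb list (3 higher and 2 lower of 15), ph-d (chrX:2122868-2123827) stood at 8.6 and 8.4 in siAGO2, against 25.2 and 26.0 in mock, whereas Pc was lower, at 75.8 and 80.6 in siAGO2 and 71.2 and 64.7 in mock. In the insulator list (3 higher and 2 lower of 8, with Ibf1 and Ibf2 at 1 site), BEAF-32 stood at 56.4 and 73.7 in siAGO2, against 91.8 and 88.5 in mock. The isoform-rich insulator gene mod(mdg4) was lower, at 41.0 and 45.8 in siAGO2 and 22.3 and 27.8 in mock.

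In the lamina list (2 higher and 1 lower of 11), baf, whose product bridges DNA and the lamina (chr2L:8029451-8031208), stood at 25.7 and 31.6 in siAGO2, against 55.7 and 55.7 in mock. Its widths were 467 and 534 bp in siAGO2, against 1747 and 1709 bp in mock. Hox genes had no shared site over a TSS, and none of 111 replication-dependent histone genes had a TSS in a peak. Histone genes lie in near-identical repeats and the study removed reads that map to several places, so this count says nothing of Pol II there. Among the sites named above, Nelf-E, RpL28, crol, baf and BEAF-32 were wide in mock and narrower in siAGO2. The sites of mtd, drd, hep, vri, slow and ine differed in rank with best peaks of at most 427 bp in all 4 libraries. Of these, mtd and drd had wider best peaks in both siAGO2 libraries than in both mock libraries, and the others narrower ones. At ine they were 219 and 264 bp wide in siAGO2, against 427 and 369 bp in mock.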

How the data were processed

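Pol II ChIP-seq of siAGO2 and mock Kc167 cells was analysed from broad peak lists. Per the study's methods, the authors trimmed reads with cutadapt, aligned them to dm6 with Bowtie2, removed multimapping reads and PCR duplicates, and called peaks per replicate against input with MACS2 2.1.1.20160309. The submitters' processing notes give cutadapt 1.10 and Picard 2.11.0, whereas the methods name other releases of both. The deposited columns used hold fold enrichment (a ratio over input) and −log10 p and −log10 q; the integer score column was deposited by the authors too and was not ranked. Read counts and depths are not in these lists.

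Sites were merged with at least 1 shared base in Python 3.11.15 (pandas 2.3.3, numpy 2.4.6, scipy 1.17.1, matplotlib 3.10.9). TSSs were those of the Ensembl BDGP6 annotation without transposable elements, 13968 protein-coding genes among 18277, and 4 listed symbols found no match. Sequences came from the RefSeq copy of dm6. Group values per library were compared by two-sided exact permutation tests. Named genes were the study's loci and AGO2, the 5 sites with a protein-coding TSS and the largest gap in each list, up to 4 members per gene list by gap, and further members named after their values were seen. Members and lists were chosen with earlier results of these data known. Code was tested on simulated data.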

Additional observations from a re-analysis of the deposited data

How the results depend on the processing

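Leaving out 1 library loosens the rule to 2 against 1 and by construction admits more sites: gained 134 to 302, lost 171 to 307, ranked higher 1247 to 1705 and ranked lower 1261 to 1752. The gene body share difference then ran from −1.14 to 1.87 points and changed sign without siAGO2 replicate 1. In whole lists 5 sites were gained and 417 lost, and the promoter share difference was 1.49 points instead of −0.33, since the lists end at different ranks. By protein-coding gene, 66 of 13968 were gained and 151 were lost. A gap of at least 10 points left 140 higher and 137 lower, and the limit to narrow sites 178 and 167. Width, downstream and upstream reach stayed negative in each setting tried for them, at −260 to −78.5 bp, −107 to −36.5 bp and −36.5 to −14 bp.

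The replicate numbers are shared between groups without a stated batch, and the deviations of same-numbered libraries correlated at 0.0974 (Pearson) over 3862 sites. With a replicate block, 1042 sites ranked higher and 1092 lower, and the smallest exact p was 0.5. The block rule asks only that both same-numbered differences have the same sign, so it is looser and by construction admits more sites. The block does not enter the gained and lost counts, which therefore stayed at 73 and 86. With 2 libraries a group, no exact permutation test here could pass 0.05.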

Other observations

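Chromosome 4, which is largely heterochromatic, held 17 and 18 peaks in the whole siAGO2 lists, against 39 and 27 in mock. In the equal-length lists its share was 0.42% and 0.20% of peaks in siAGO2 and 0.24% and 0.32% in mock, so the groups overlapped. The Y chromosome, which a female line lacks, had 2 peaks in siAGO2 replicate 2 (ranks 4774 and 4097 of 5381) and 2 in mock replicate 1 (ranks 4099 and 4420 of 5965), and none in the other libraries.

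Long and short genes moved little. Of 539 protein-coding genes over 20000 bp with a shared site, 98 ranked higher and 108 lower, and of 821 genes up to 1500 bp, 178 ranked higher and 131 lower. Of 3 neuron markers with a shared site, 1 ranked lower and 2 overlapped, with a list median of −0.92. The 3 muscle markers divided in the same way, with a median of 8.96. The 2 that separated were named after their values were seen, nrv3 at 80.5 and 64.2 in siAGO2 and 45.8 and 34.6 in mock, and Mlc2 at 96.7 and 95.2 in siAGO2 and 78.4 and 90.2 in mock.

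In the whole lists, 2 further promoters had a peak in siAGO2 alone. CG18557 ranked 3094 and 4006 in siAGO2, and CG4793 ranked 3710 and 4453, with no mock peak at either.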
